A study of Homo sapiens with 6 samples.

Results

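The cytosolic translation initiation factors (EIF1 to EIF6) and elongation factors (EEF1 and EEF2), with the proteins that bind or modify them, made up 65 of the 17918 genes in the deposited expression table. The rule read gene symbols and no measured value. The pattern matched 70 symbols, of which 5 were left out, namely the eIF2 kinases EIF2AK1 to EIF2AK4 and the synthetase scaffold EEF1E1. RNA of KMS11, an established human multiple myeloma line, was sequenced in 6 libraries. Myeloma is a plasma cell cancer. The knockdown group, 3 libraries with the genotype CRIP1 knockdown, expressed an interfering short hairpin (shRNA) that targets CRIP1, a small LIM domain protein. The scramble group, also 3 libraries, had a scramble shRNA and the genotype WT. Both groups were grown in RPMI 1640 with serum and penicillin, and no treatment was given to either. Everything below therefore describes a single cell line, and the labels say neither how many hairpins were used nor whether the cells were a pool or a clone. The labels do not say that replicates came from separate cultures either, so every p-value here reflects the spread among these 6 samples alone, which may be technical.

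Translation of a capped mRNA begins when eIF4E binds the cap, the scaffold eIF4G joins it to the helicase eIF4A, and eIF3 bridges this assembly to the small ribosomal subunit. That subunit carries the initiator tRNA, brought by eIF2 and GTP, and scans with eIF1 and eIF1A until a start codon is found, where eIF5 triggers GTP hydrolysis and eIF5B joins the large subunit. eIF2B recharges eIF2, and stress kinases block this step by phosphorylating eIF2. In elongation eEF1A brings each aminoacyl-tRNA, eEF1B recharges eEF1A, and eEF2 moves the ribosome along. Plasma cells and myeloma cells are known for a high load of protein synthesis, because they make antibody.

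Library totals ranged from 16971454 to 18005318 estimated counts. Libraries of one group correlated at 0.995 to 0.996 (Pearson's r across genes, on a log2 scale) and libraries of different groups at 0.921 to 0.924. CRIP1 was at 2791, 3327 and 3174 TPM in the scramble libraries and at 127, 129 and 134 TPM in the knockdown libraries, where TPM is a transcript level corrected for gene length and scaled to the same sum in every library. Of 8 tested plasma cell markers, 5 were lower and 3 higher, and the 10 markers listed summed to 8371 to 8811 TPM in scramble and 3793 to 4048 TPM after knockdown. Most of that difference was JCHAIN, the joining chain of secreted antibody (6443 to 1789 TPM), and without it the sums were 2170.3 to 2199 and 2064 to 2151 TPM. These sums hide changes in both directions. MZB1 (347 to 164.5 TPM), PRDM1 (66.8 to 38.7), XBP1 (773 to 560) and SDC1 (39.8 to 29.1) fell. TNFRSF17 (761 to 1032 TPM), IRF4 (179 to 257) and CD38 (13.2 to 20.6) rose. SLAMF7 had 2 counts over the scramble and 9 over the knockdown libraries. Of 12 erythroid markers, 11 were higher and 0 lower. These 11 passed the filter on low counts only through the knockdown libraries, so their calls are no separate support. They summed to 3.86 to 5.66 TPM in scramble, most of it EPOR, with 10 markers at 0 counts there (among them HBG1, HBG2, HBE1 and GATA1), and to 743 to 750 TPM after knockdown. The 4 epithelial markers, all higher, summed to 9.69 to 12.6 and 82.5 to 88.9 TPM, and the 4 myeloid markers, of which 2 were tested and both were higher, to 0.45 to 0.68 and 6.6 to 7.29 TPM. The 3 fibroblast markers were divided, with 1 higher and 2 lower. COL1A2, a fibroblast collagen, had 0 counts over the scramble and 660 over the knockdown libraries. COL1A1 fell from 1.12 to 0.05 TPM and PDGFRB from 6.18 to 1.07 TPM. KRT18, KRT19, CD33, LYZ and COL1A2 also passed the filter only through the knockdown libraries, and COL1A1 only through the scramble libraries. Other markers stayed near 0. Over the scramble and the knockdown libraries, the myeloid MPO had 2 and 2 counts and CD14 had 2 and 5. Of 3 T and NK markers, 0 were tested, with 0 and 19 counts for CD3D, 7 and 5 for CD3E and 0 and 0 for NKG7. The knockdown libraries thus carried some transcripts of other cell types that the scramble libraries lacked or held at low levels. Whether all of their cells were KMS11 was not tested. The part of these transcripts in the results below was not tested either. In bulk RNA, fewer cells of a type and less RNA per cell cannot be told apart.

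Translation factor genes went both ways, at about the same rate as the rest of the transcriptome. Of the 65 genes, 61 passed the filter on low counts, 22 of these were higher after knockdown, 26 were lower and 13 were not called. "Called" means an adjusted p below 0.05 in edgeR's quasi-likelihood test over all 12612 genes tested, and changes are log2 fold changes of knockdown minus scramble. The members called made up 78.7%, against 77.6% of all genes tested. By direction, 39.4% of all genes tested were higher and 38.1% were lower, shares that also stand beside the counts of each role below. The median of the members was -0.04 and that of all genes 0.01, and the median size of a change was 0.35 in the members against 0.41 in all genes. At 2-fold or more, 2 members were higher, EIF4E3 and EEF1A2, and 3 were lower, EIF3K, EIF3B and EEF1D, where 10.0% of all genes tested were higher and 8.06% lower by this rule. EEF1A2 passed the filter on low counts only through the knockdown libraries. The 3 that were lower sat just past 2-fold, and 0 members were 2-fold lower under upper-quartile scaling or with a trend on GC content removed.

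Scaling bears on the balance of small changes. With limma on log2(TPM + 1), all genes had a median change of 0.12, and 30 members were higher and 20 lower. On log2(FPKM + 1) the split was 25 and 23. Once the TPM scale was recentred so that the median gene was at 0, it was 21 and 25. The TPM levels given below carry this shift, so a gene with equal TPM in both groups has a fitted change slightly below 0. TPM values of the 3 knockdown libraries did not overlap those of the 3 scramble libraries in 51 of the 61 tested members (83.6%, against 78.5% of all genes tested). For such a gene an exact permutation test (two-sided) on the 6 levels gives p = 0.1, the smallest that 3 against 3 allows.

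**Figure D1:**
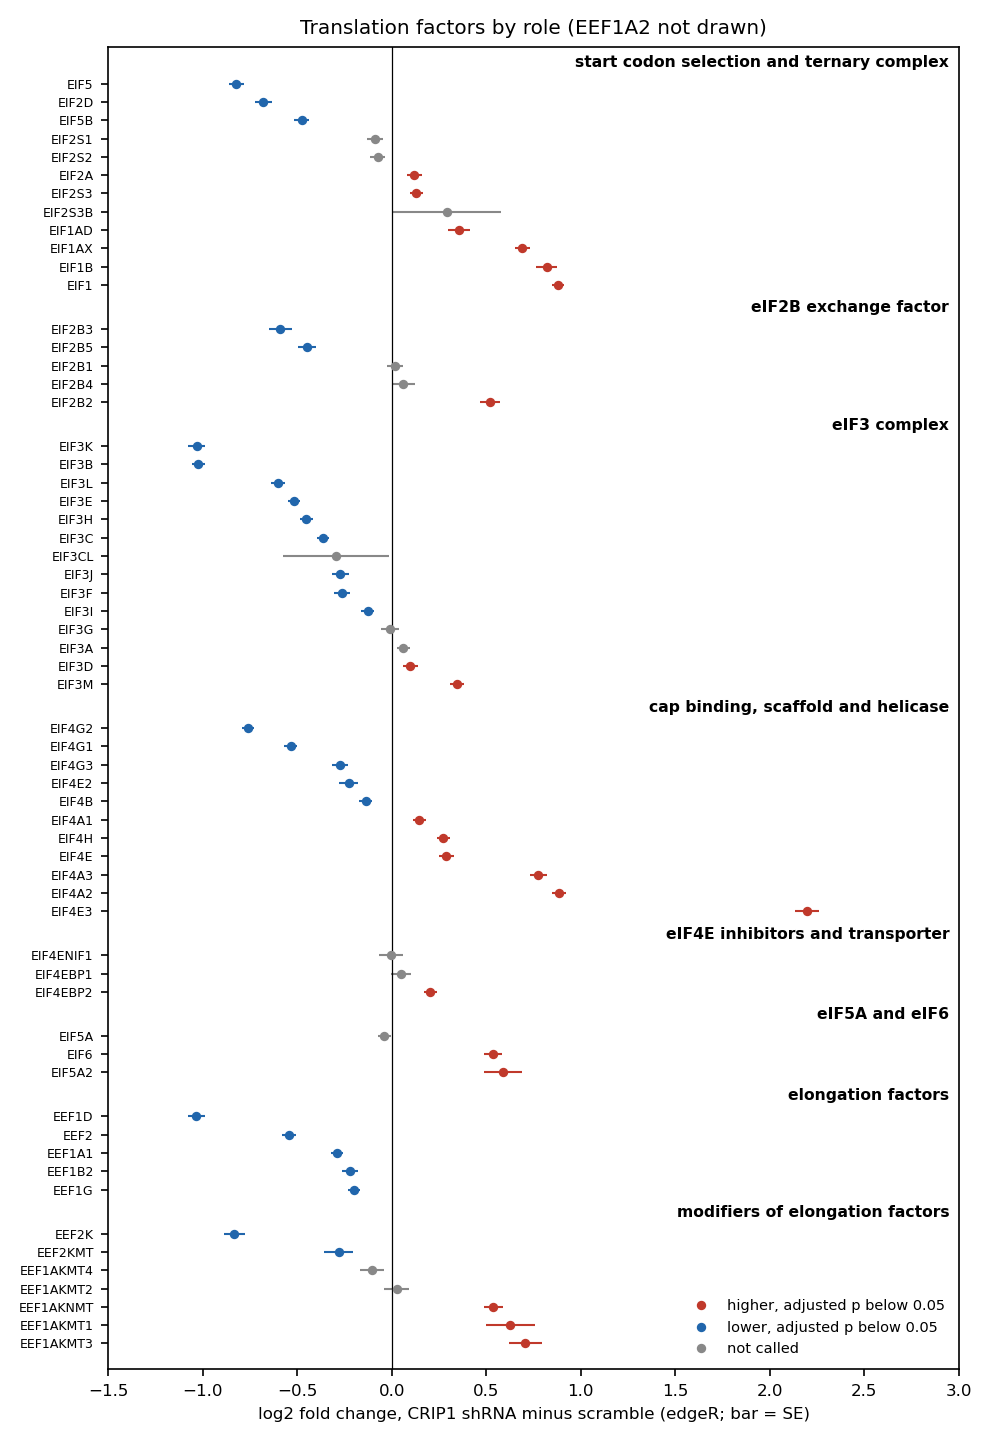
Fitted log2 fold change (CRIP1 shRNA minus scramble, edgeR) of 60 tested translation factor genes on the x axis, grouped by role, with bars for the SE. EIF4E3 stands apart at 2.2, most eIF3 subunits and the elongation factors lie below 0, and EEF1A2, with 1 count in scramble, is not drawn.

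Of the 4 members not tested, EIF4EBP3 had 5 counts over the scramble and 0 over the knockdown libraries, EIF5AL1 had 2 and 2, and the readthrough transcript EEF1AKMT4-ECE2 had 0 in every library. EIF1AY, a Y-linked copy of EIF1AX, also fell below the filter. Exons of 25 members overlap those of another gene of the table in GENCODE 29, in 23 of them on the opposite strand. No strand setting is known, so such reads cannot be told apart. Near-identical copies (EIF3C with EIF3CL, EIF2S3 with EIF2S3B, EIF5A with EIF5AL1, and the pseudogenes of EEF1A1) share reads, and how these were divided depends on the authors' counting.

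Many mRNAs of the translation machinery start with a C followed by an unbroken run of C and T, the terminal oligopyrimidine (TOP) tract through which mTORC1 and LARP1 regulate them. The start sites are shown here because the tract is a feature that the choice by symbol did not use. Starts were read from RefSeq promoters (GRCh38.p14), which matched 51 of the 65 genes by symbol, and each window holds 10 bases before and 20 bases from the listed start, 5′ to 3′ on the gene's own strand. Capitals mark the tract, searched on that strand as a C at the start with at least 4 bases of C or T directly after it. A gene counted as having the tract if any of its listed starts matched, which favours genes with more starts. EEF1B2 and EIF4E3 have other listed starts, all without the tract, that are not shown. The first 4 lines are genes that were lower after knockdown, the next 2 genes that were higher, and the last 2 are higher genes without the tract. Lower genes without the tract, such as EIF3B (-1.03), are not shown. Of the tested members without it, 13 were higher and 14 lower, so these lines do not show the balance.
EEF1A1 (chr6:73521013-73521042, minus strand): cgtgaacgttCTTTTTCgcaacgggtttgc
EEF2 (chr19:3985444-3985473, minus strand): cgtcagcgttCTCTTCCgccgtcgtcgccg
EEF1B2 (chr2:206159885-206159914, plus strand): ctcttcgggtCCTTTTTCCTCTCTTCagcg
EIF3K (chr19:38619178-38619207, plus strand): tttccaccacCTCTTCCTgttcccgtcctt
EIF4A2 (chr3:186783567-186783596, plus strand): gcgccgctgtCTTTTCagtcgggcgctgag
EIF3M (chr11:32583821-32583850, plus strand): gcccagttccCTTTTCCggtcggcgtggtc
EIF1 (chr17:41688875-41688904, plus strand): ccgcccctctgccccagtcactgagccgcc
EIF4E3 (chr3:71754754-71754783, minus strand): cccgccgtccagttggcggccgcctggccg

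The tract stood at a listed start of 13 of the 51 genes (25.5%), against 5.14% of the 27305 genes in the RefSeq table, 7.63% of the 10244 tested genes with an entry, and 73.4% of 64 cytosolic ribosomal protein genes. Members with it moved in both directions. Of the 13, 5 were higher (EIF4A2, EIF3M, EIF2S3, EIF2A and EIF3D), 7 lower (EIF3K, EIF2D, EEF2, EEF1A1, EIF3F, EEF1B2 and EIF4B) and 1 not called (EIF2S3B). Their median was -0.14, beside -0.02 for the 34 tested members with an entry and no tract, of which 13 were higher and 14 lower. Over all 782 tested genes with the tract, 287 were higher and 329 lower, with a median of -0.05. This division was chosen after the values were seen and carries no test. A match is a description of the letters at 1 annotated start, and no match says only that these letters are not there.

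**Figure D2:**
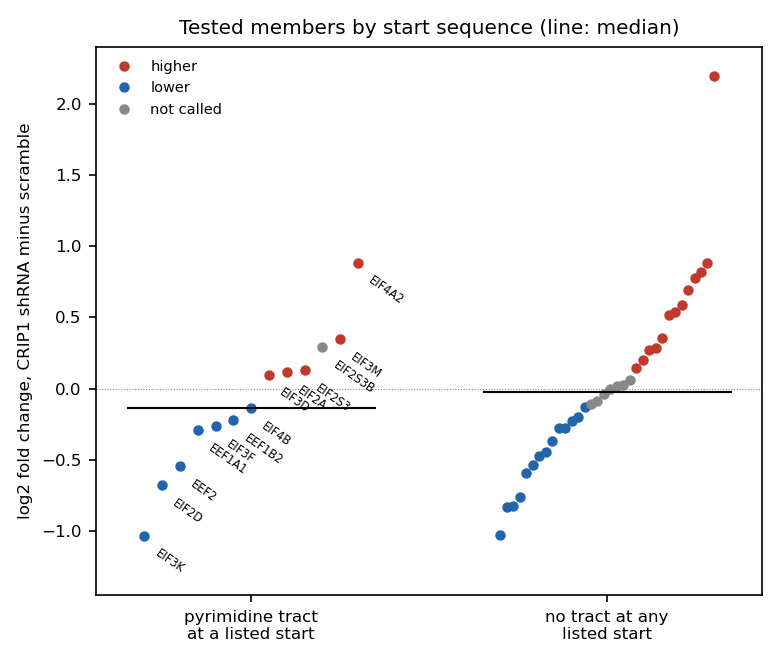
Fitted log2 fold change (y axis) of the 47 tested members with a RefSeq start, split by whether a C followed by at least 4 pyrimidines stands at a listed start, with a line at each median. The 13 genes with the tract spread from -1.03 (EIF3K) to 0.89 (EIF4A2), beside -1.03 (EIF3B) to 2.2 (EIF4E3) for the 34 without it.

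Among the genes listed under start codon selection and the initiator tRNA, EIF1, EIF1B and EIF1AX rose, while EIF5 and EIF5B fell. EIF1, which keeps the scanning ribosome from starting at wrong codons, was at 841, 809 and 826 TPM in scramble and at 1701, 1609 and 1699 TPM after knockdown. Every knockdown library stood far above every scramble library, and the fitted change was 0.88 (SE 0.03, adjusted p = 1.86e-15). Its paralogue EIF1B went from 87.1, 78.6 and 75.9 TPM to 156.8, 154.7 and 157.6 TPM (0.82, SE 0.06). EIF1 held 91.1% ± 0.484 of the TPM of the pair in scramble and 91.4% ± 0.181 after knockdown (SD, n = 3), shares whose groups overlapped. EIF1AX, the eIF1A that works with eIF1, rose by 0.69 (SE 0.04), and EIF1AD, an eIF1A-domain protein, by 0.36 (SE 0.06).

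EIF5, the activator of GTP hydrolysis by eIF2, stood at 69.2, 72 and 67.8 TPM in scramble and at 44.1, 43.6 and 42.2 TPM after knockdown, groups that did not overlap (-0.82, SE 0.04, adjusted p = 7.47e-14). EIF5B, the subunit joining GTPase, fell by 0.48 (SE 0.04) on the log2 scale, and EIF2D, which can deliver tRNA without GTP, fell by 0.68 (SE 0.05). The subunits of eIF2 itself, the carrier of the initiator tRNA, changed little. EIF2S1, the alpha subunit that stress kinases phosphorylate, was at 44.1, 42.8 and 44.8 TPM against 47.6, 44.9 and 43.4 TPM after knockdown, and the groups overlapped. Its fitted change was -0.09 (SE 0.04, adjusted p = 0.0715). On log2(TPM + 1) it was 0.045. It was called lower without CRIP1 shRNA replicate 1 (adjusted p = 0.0179) and once the GC trend was taken out (2.81e-05). Its exons overlap ATP6V1D on the opposite strand, which rose by 0.70. EIF2S2, the beta subunit, had a change of -0.08 (adjusted p = 0.0871), and its call went both ways. It passed as higher on log2(TPM + 1) (0.12, adjusted p = 0.0182), and as lower with the GC trend removed (adjusted p = 0.000612) and without CRIP1 shRNA replicate 1 (0.00866). EIF2S3, the gamma subunit, rose by 0.13 (SE 0.03), a call lost with the GC trend removed (adjusted p = 0.399). EIF2S3B, its near copy, was at 0.29 (adjusted p = 0.36) and at -0.0153 without CRIP1 shRNA replicate 2. EIF2A, a separate factor, rose by 0.12 (SE 0.04), but its value was -0.01 with the GC trend removed and it missed the threshold without CRIP1 shRNA replicate 3 (adjusted p = 0.0679). In all, 6 of these 12 genes were higher, 3 lower and 3 not called, or 7 and 3 on log2(TPM + 1), and 4 and 5 after removal of the GC trend. Their share called, 75%, was close to the 77.6% of all genes tested, of which 39.4% were higher and 38.1% lower.

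The 5 subunits of eIF2B, the exchange factor that reloads eIF2 with GTP, moved apart. EIF2B5, the catalytic epsilon subunit, was at 72 ± 1.07 TPM in scramble and 58.2 ± 3.93 TPM after knockdown (SD, n = 3), a change of -0.45 (SE 0.05), and EIF2B3, the gamma subunit that pairs with it, fell from 42.3 ± 2.64 to 29.2 ± 1.03 TPM (-0.59, SE 0.06). EIF2B2, the beta subunit of the regulatory part, rose from 11.7 ± 0.384 to 18.4 ± 0.196 TPM (0.52, SE 0.05). The other regulatory subunits, EIF2B1 (0.02) and EIF2B4 (0.06), were not called, although both passed as higher on log2(TPM + 1), where 3 subunits were higher and 2 lower, and EIF2B1 was at -0.01 without scramble replicate 2. With the GC trend removed, 2 were higher and 2 lower. Of the summed TPM of the 5 subunits, EIF2B5 and EIF2B3 took 32.8% ± 0.479 and 19.2% ± 0.889 in scramble and 27.5% ± 1.24 and 13.8% ± 0.439 after knockdown (SD, n = 3). These shares do not depend on library scaling.

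Most subunits of eIF3, the largest initiation factor, fell. Of 14 genes, 9 were lower, 2 higher and 3 not called, with a median of -0.28, or 8 lower and 4 higher on log2(TPM + 1). The share called, 78.6%, was close to the 77.6% of all genes tested, of which 39.4% were higher and 38.1% lower. EIF3K, a small subunit at the edge of the complex, went from 493, 534 and 518 TPM to 277, 279.9 and 269 TPM (-1.03, SE 0.04, adjusted p = 1.96e-14). EIF3B, a core subunit that binds eIF3g and eIF3i, went from 452, 433 and 440.4 TPM to 234, 235 and 247 TPM (-1.03, SE 0.03, adjusted p = 4.32e-16). In both genes all 3 knockdown libraries lay below every scramble library.

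EIF3L, the partner of eIF3k, fell by 0.60 (SE 0.04), EIF3E by 0.52 (SE 0.03), EIF3H by 0.45 (SE 0.04) and EIF3C by 0.37 (SE 0.03) on the log2 scale. EIF3J, which is loosely attached, fell by 0.27 (SE 0.04) and EIF3F by 0.26 (SE 0.04). EIF3I (-0.13, SE 0.04) also passed as lower, but overlapped between groups in TPM, stood at 0.01 on log2(TPM + 1) and lost its call with the GC trend removed (adjusted p = 0.288). EIF3M rose from 194 ± 5.27 to 272 ± 14.2 TPM (0.35, SE 0.04). EIF3D, a cap-binding subunit, passed as higher (0.10, SE 0.04, adjusted p = 0.0238), a call lost without scramble replicate 2 (adjusted p = 0.142) or 3 (0.0632), without CRIP1 shRNA replicate 2 (0.0964) or 3 (0.0528), and with no filter on low counts (0.0556).

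EIF3A, the scaffold subunit, was at 0.06 (adjusted p = 0.125). It passed as higher on log2(TPM + 1) (adjusted p = 0.000922), under upper-quartile scaling (0.0135) and without scramble replicate 1 (0.041), and was -0.03 with the GC trend removed. EIF3G was at -0.01 (adjusted p = 0.862) and its sign turned with the scaling. It overlaps P2RY11 on the opposite strand, which rose by 3.37. EIF3CL, the near copy of EIF3C, was at -0.30 (adjusted p = 0.337). Its value was -1.0 without CRIP1 shRNA replicate 2, where it was called, and 0.07 without CRIP1 shRNA replicate 3, so its value rests on single libraries. The summed TPM of subunits A to M was 3412 to 3457 in scramble and 2852 to 2919.7 after knockdown.

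**Figure D3:**
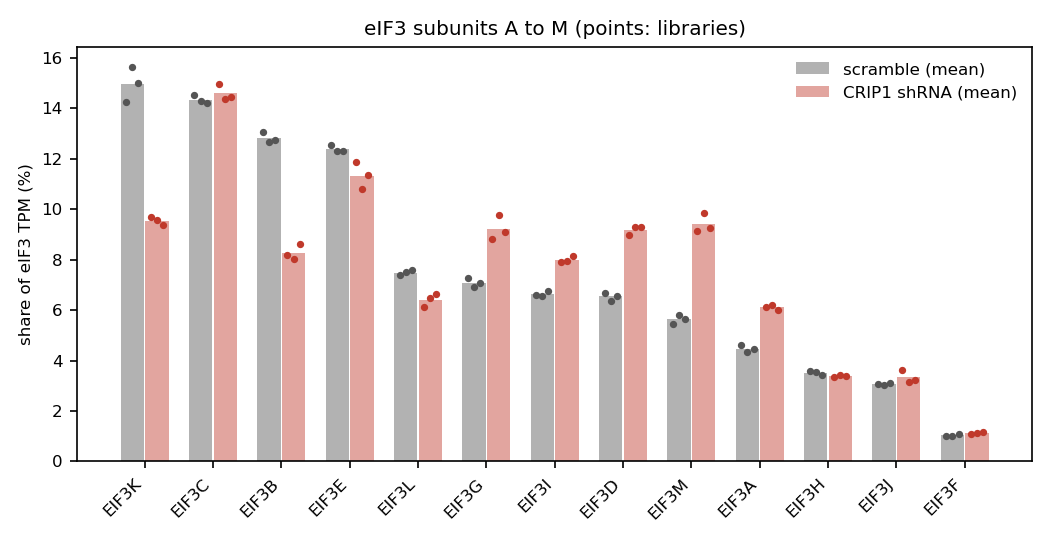
Share of each eIF3 subunit (x axis) in the summed TPM of subunits A to M (y axis, percent), with bars for the group mean and points for the 3 libraries. EIF3K went from 15% to 9.55% and EIF3B from 12.8% to 8.28%, while EIF3M went from 5.64% to 9.43% and EIF3D from 6.54% to 9.19%.

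Within the complex the proportions of the mRNAs shifted. EIF3K held 15% ± 0.701 of the eIF3 TPM in scramble, the highest mean share although EIF3C held more in scramble replicate 1 (14.5% against 14.2%), and 9.55% ± 0.178 after knockdown (SD, n = 3), below EIF3C (14.6% ± 0.323) and EIF3E (11.3% ± 0.541). EIF3M rose from 5.64% ± 0.186 to 9.43% ± 0.375. EIF3C (14.3% ± 0.157 and 14.6% ± 0.323) kept overlapping shares. EIF3F held the lowest share in both groups, 1.03% ± 0.0397 and 1.12% ± 0.0278.

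Among the cap-binding proteins, EIF4E3 rose most. This member of the eIF4E family binds the cap without the usual aromatic clamp and is known to oppose eIF4E. It was at 6.28, 5.99 and 6.26 TPM in scramble and at 30.1, 29.4 and 32.9 TPM after knockdown, groups that lay far apart. The fitted change was 2.2, or 4.58-fold (SE 0.06 on the log2 scale, adjusted p = 4.15e-17), the largest of the members with at least 5 TPM in a group. The gene lies at chromosome 3, 71675416 to 71754773 (GRCh38, GENCODE 29), and its exons overlap GPR27 on the other strand, which had 0 counts in scramble and 4, 1 and 2 in the knockdown libraries. EIF4E, the main cap-binding protein, was at 152, 140.1 and 147 TPM against 204, 190.2 and 197 TPM after knockdown (0.29, SE 0.04, adjusted p = 1.15e-06), with no overlap. EIF4E2, a cap-binding repressor, overlapped between groups, at 123 ± 7.29 and 121 ± 11 TPM (-0.23, SE 0.05). Its call as lower was lost on log2(TPM + 1) (adjusted p = 0.726) and after recentring (0.0644). EIF4E3 held 2.24% ± 0.0682 of the summed TPM of the 3 genes in scramble and 8.86% ± 0.751 after knockdown (SD, n = 3), whereas EIF4E2 went from 44.6% ± 0.806 to 34.7% ± 1.96.

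The eIF4G scaffolds fell together. EIF4G1, the main scaffold, was at 359, 344 and 360.3 TPM and then at 268, 273 and 261 TPM (-0.54, SE 0.03, adjusted p = 1.14e-11). EIF4G2, a shorter relative that does not bind eIF4E, was the most abundant at 749.7, 747 and 734 TPM, and stood at 485, 484 and 481 TPM after knockdown (-0.76, SE 0.03, adjusted p = 9.78e-15). EIF4G3 fell by 0.27 (SE 0.04). In each of the 3 genes the groups did not overlap.

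The helicases rose, but unequally. EIF4A2 went from 303, 282 and 293 TPM to 619, 578 and 585 TPM (0.89, SE 0.04, adjusted p = 1.24e-14). EIF4A1, its close paralogue in cap-dependent initiation, was at 320 ± 1.27 and 389 ± 9.61 TPM (SD, n = 3; 0.15, SE 0.04). Of the TPM of the pair, EIF4A2 thus held 47.8% ± 0.832 in scramble and 60.4% ± 1.12 after knockdown, and the more abundant gene of the pair changed from EIF4A1 to EIF4A2 in every library. EIF4A3, which acts in the exon junction complex rather than in initiation, went from 149.8, 168 and 161 TPM to 291, 327 and 295 TPM (0.78, SE 0.04). EIF4H, a helper of eIF4A, rose by 0.27 (SE 0.03). EIF4B, the other helper, overlapped between groups, at 332 ± 15.7 and 331 ± 9.27 TPM (-0.14, SE 0.04), and its call as lower was lost on log2(TPM + 1) (adjusted p = 0.965). Of these 11 cap-binding, scaffold and helicase genes, 6 were higher and 5 lower, or 6 and 3 on log2(TPM + 1). Over all genes tested, 77.6% were called, 39.4% as higher and 38.1% as lower.

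The inhibitors of eIF4E changed little. EIF4EBP1, the mTORC1 target 4E-BP1, was at 199, 207 and 205 TPM against 224, 244 and 227 TPM. The TPM groups did not overlap, yet the fitted change was 0.05 (SE 0.05, adjusted p = 0.385). It was called higher on log2(TPM + 1) (adjusted p = 0.00188) and once the GC trend was taken out (0.00439), and was -0.01 without CRIP1 shRNA replicate 2. EIF4EBP2 rose from 48.0, 48.5 and 49.2 TPM to 61.6, 61.0 and 61.7 TPM (0.20, SE 0.03, adjusted p = 1.39e-05). EIF4EBP3 was listed at 0, 1.09 and 0 TPM in scramble and at 0 in all knockdown libraries. It overlaps the readthrough gene ANKHD1-EIF4EBP3 on the same strand, which fell by 0.30, and reads of the pair cannot be told apart. EIF4ENIF1, which carries eIF4E into the nucleus, was at -0.01 (adjusted p = 0.941), with a sign that turned with the scaling.

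**Figure D4:**
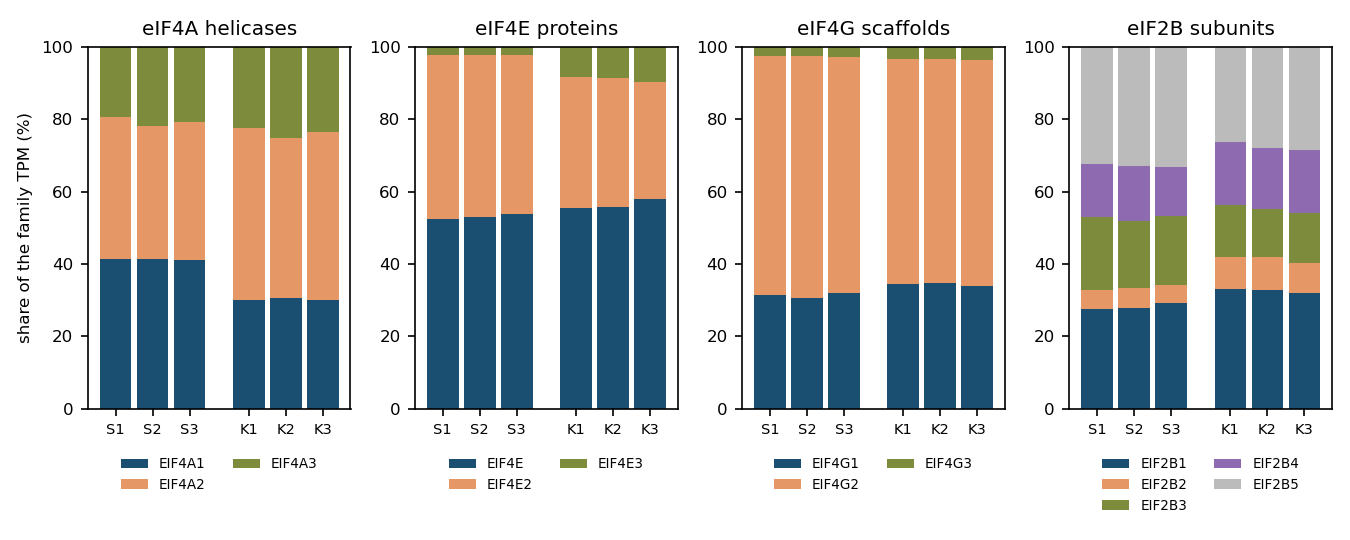
Share of each gene in the summed TPM of its family (y axis, percent) in scramble libraries 1 to 3 (S1 to S3) and CRIP1 shRNA libraries 1 to 3 (K1 to K3). EIF4A2 and EIF4E3 took larger shares in all 3 knockdown libraries, EIF4E2, EIF2B3 and EIF2B5 smaller ones.

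EIF6, which keeps the large ribosomal subunit from joining too early and also acts in its assembly, was at 199, 213 and 212 TPM in scramble and at 307, 340.5 and 351 TPM after knockdown, with no overlap (0.54, SE 0.05, adjusted p = 4.22e-09). EIF5A, the hypusine-bearing factor that helps ribosomes past difficult peptide bonds, stood at 433, 422 and 431 TPM and then at 459.8, 467 and 450.2 TPM. Its fitted change of -0.04 (adjusted p = 0.301) turned to 0.10 on log2(TPM + 1) (adjusted p = 0.0133) and to 0.07 with the GC trend removed (adjusted p = 0.0494), so its direction rests on the scaling. EIF5A2, its rare paralogue, rose from 2.73, 2.76 and 3.29 TPM to 4.45, 4.67 and 5.39 TPM (0.59, SE 0.10, adjusted p = 2.15e-05). It held 0.678% ± 0.0695 of the TPM of the pair in scramble and 1.04% ± 0.122 after knockdown (SD, n = 3).

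The elongation factors fell, apart from a paralogue near the limit of detection. EEF1A1, the most abundant of all members, was at 6637, 6253 and 6352 TPM in scramble and at 5927, 5648 and 5721 TPM after knockdown (-0.29, SE 0.03, adjusted p = 1.01e-07). EEF2, the translocase, went from 1271, 1263 and 1284 TPM to 899, 995 and 985 TPM (-0.54, SE 0.04, adjusted p = 3.76e-11). Neither gene overlapped between groups.

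The 3 subunits of eEF1B, which reloads eEF1A with GTP, fell by unlike amounts. EEF1D, the delta subunit, had 341, 347 and 348 TPM in scramble and 158, 177 and 160.4 TPM after knockdown (-1.03, SE 0.04, adjusted p = 1.30e-14). EEF1B2, the alpha subunit (-0.22, SE 0.04), and EEF1G, the gamma subunit (-0.20, SE 0.03), fell less, EEF1B2 overlapped between groups in TPM (1242 ± 24.3 and 1174 ± 51.0, SD, n = 3), and on log2(TPM + 1) neither passed (adjusted p = 0.0716 and 0.0886). EEF1D held 10.4% ± 0.138 of the TPM of the 3 subunits in scramble and 5.48% ± 0.183 after knockdown (SD, n = 3).

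EEF1A2, the eEF1A of neurons and muscle, had 1 count over the 3 scramble libraries and 69 over the 3 knockdown libraries, a ratio of 66.9 (95% exact binomial counting interval 11.6 to 2680, which covers counting error only). EEF1A2 passed the filter on low counts only through the knockdown libraries. Its place among the tested genes thus rested on the group where it was high, and neither the ratio nor its call is separate support. Its levels were 0, 0.07 and 0 TPM against 1.42, 1.63 and 1.58 TPM, so that it made up 0.0268% ± 0.00255 of the TPM of the EEF1A pair after knockdown. The erythroid markers, at 0 counts in scramble for 10 of 12, rose in the same libraries, and their part in this value was not tested. Of the 6 elongation factor genes, 5 were lower and EEF1A2 was higher, and on log2(TPM + 1) 3 were lower and 1 higher. Among all genes tested, 77.6% were called, 38.1% as lower and 39.4% as higher. Their summed TPM was 10886 to 11226 in scramble and 9692 to 9766 after knockdown, whereas that of all 65 members was 20491 to 20975 and 20436 to 20597, groups that overlapped. Without EEF1A1 the sum over the members was 14238 to 14338 TPM in scramble and 14671 to 14840.4 TPM after knockdown.

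**Figure D5:**
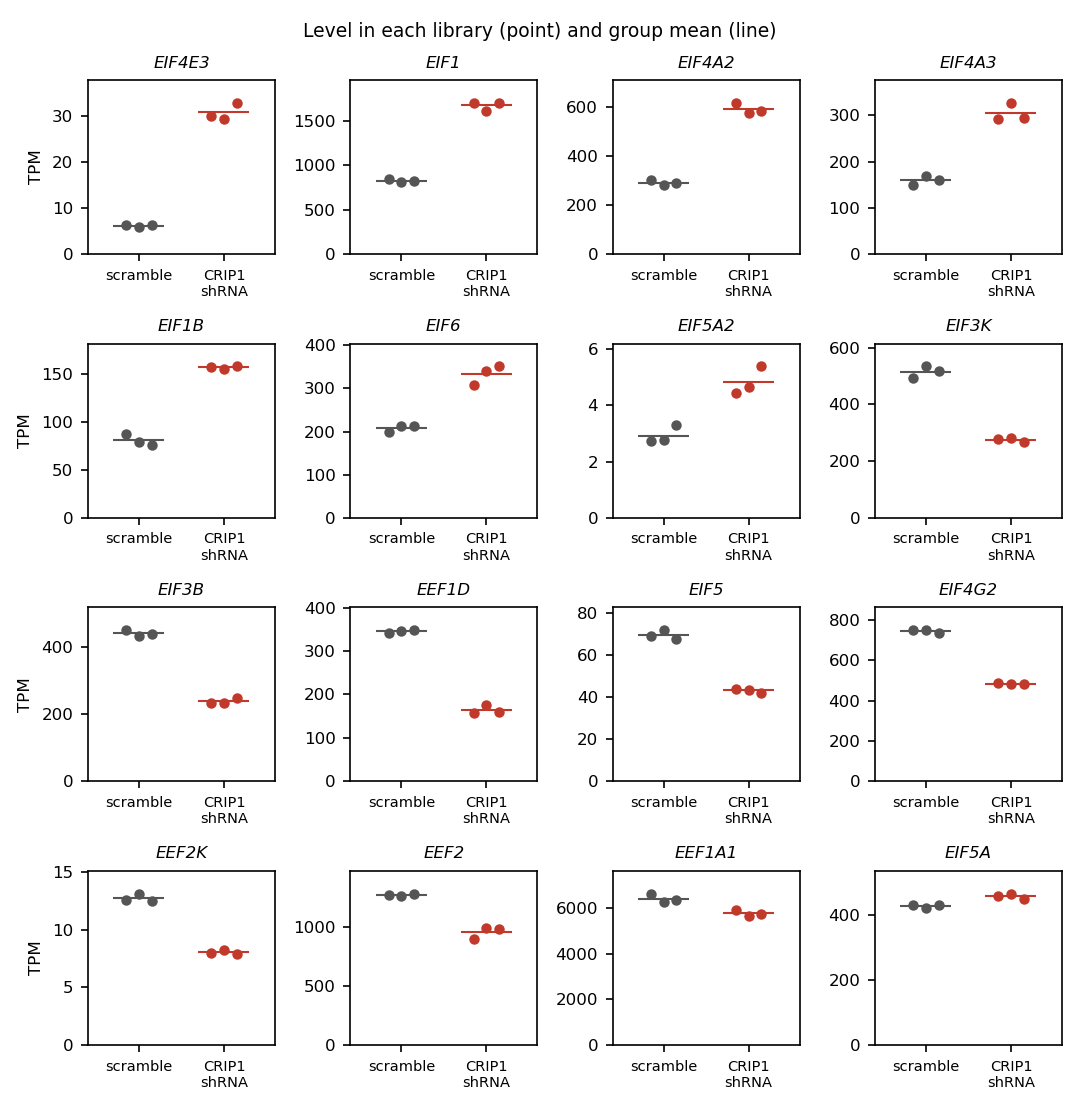
TPM (y axis, from 0) of 16 translation factor genes in each library (points), with the group mean (line), for scramble and CRIP1 shRNA. EIF4E3, EIF1, EIF4A2, EIF4A3, EIF1B, EIF6 and EIF5A2 lie higher in every knockdown library, EIF3K, EIF3B, EEF1D, EIF5, EIF4G2, EEF2K, EEF2 and EEF1A1 lie lower, and EIF5A differs little.

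Enzymes that modify the elongation factors were divided. EEF2K, the kinase that halts eEF2, fell from 12.6, 13.2 and 12.5 TPM to 8.02, 8.27 and 7.94 TPM (-0.83, SE 0.06, adjusted p = 3.71e-11), as did EEF2 itself. EEF2KMT, the lysine methyltransferase of eEF2, passed as lower (-0.28, SE 0.08), which was lost on log2(TPM + 1) (adjusted p = 0.0964). Of the eEF1A methyltransferases, EEF1AKMT3 rose from 7.07, 6.65 and 7.28 TPM to 13.6, 12.3 and 12 TPM (0.71, SE 0.09, adjusted p = 2.82e-07), EEF1AKMT1 rose by 0.63 (SE 0.13) and EEF1AKNMT by 0.54 (SE 0.05). EEF1AKMT2 (0.03) and EEF1AKMT4 (-0.11) were not called, and each changed sign with the GC trend removed. Of the 7 genes 3 were higher and 2 lower, or 4 and 1 on log2(TPM + 1). Their share called, 71.4%, was near the 77.6% of all genes tested, of which 39.4% were higher and 38.1% lower.

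Among 55 further genes of translation outside the symbol rule, 11 were higher and 25 lower (65.5% called), with a median of -0.05. On log2(TPM + 1) 23 were higher and 21 lower. Over all genes tested, 77.6% were called, 39.4% as higher and 38.1% as lower, and these shares also stand beside each smaller list below. The lists were chosen with earlier results of these data known. Of the eIF2 kinases and their counterparts, 2 of 8 rose and 1 fell, or 7 and 1 on log2(TPM + 1), 6 and 1 under upper-quartile scaling, and 2 and 2 with the GC trend removed. PPP1R15A, the GADD34 subunit that directs dephosphorylation of eIF2, rose from 98.7 to 302 TPM (1.48, SE 0.05) and GCN1, the activator of the kinase GCN2, fell from 94.4 to 49.5 TPM (-1.07, SE 0.04), while IMPACT, which competes for GCN1, rose by 0.51 (SE 0.04). The kinase EIF2AK3, PERK, was at 0.12 (SE 0.06, adjusted p = 0.0696).

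In the mTORC1 and MNK arm that feeds eIF4F, 4 of 17 rose and 10 fell. PDCD4, an inhibitor of eIF4A, rose from 63.5 to 190.6 TPM (1.45, SE 0.04), PAIP1, a partner of the poly(A)-binding protein, rose by 0.77 (SE 0.05) and RHEB, the activator of mTORC1, by 0.71 (SE 0.04). CYFIP1, an eIF4E-binding repressor, fell by 0.90 (SE 0.05). Named after their values were seen, RPS6KB1, PABPC4, RPTOR, PABPC1, LARP1, RPS6KB2, MTOR, MKNK2 and PAIP2 were also lower, from -0.58 (RPS6KB1) to -0.24 (PAIP2). PAIP2B was also higher (0.52). Of 5 helicases and initiation cofactors, 4 fell and 0 rose, or 4 and 1 on log2(TPM + 1), with BZW2 (-0.98, SE 0.05), BZW1 (-0.67, SE 0.03), DDX3X (-0.68, SE 0.04) and ABCF1 (-0.30, SE 0.04) lower.

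Termination and rescue factors were 2 higher and 3 lower of 8, or 3 and 2 on the log2(TPM + 1) scale, and 2 and 5 after removal of the GC trend. The release factor genes GSPT1 (0.32, SE 0.03) and GSPT2 (0.29, SE 0.05) rose and the rescue factors HBS1L (-0.35, SE 0.04) and PELO (-0.26, SE 0.05) fell. ETF1, the release factor that reads stop codons, was also lower (-0.17, SE 0.04), and is named here after its value was seen. Enzymes of hypusine and diphthamide, the modified residues of eIF5A and eEF2, were 3 higher and 4 lower of 9, or 4 and 1 on log2(TPM + 1), and 3 and 2 after removal of the GC trend, with DPH3 (0.66, SE 0.07), DPH6 (0.56, SE 0.09) and DPH5 (0.47, SE 0.07) higher and DPH2 (-0.59, SE 0.05) lower. Among selenocysteine and mitochondrial factors, 0 rose and 3 of 8 fell, or 3 and 3 on log2(TPM + 1), and 1 and 4 after removal of the GC trend. The genes that fell were the mitochondrial elongation factors TUFM (466 to 268 TPM, -0.94, SE 0.04), GFM1 (-0.33, SE 0.04) and TSFM (-0.33, SE 0.04), and EEFSEC was at 0.10 (SE 0.06, adjusted p = 0.136).

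For comparison, 15 of 81 tested cytosolic ribosomal protein genes were higher and 48 lower, with a median of -0.10 and changes from -0.93 to 0.72. On log2(TPM + 1) 26 were higher and 27 lower. Their share called, 77.8%, was also close to that of all genes. The difference between these genes and the translation factors was not tested.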

How the data were processed

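Total RNA of KMS11 cells, 3 samples per group by title, went into libraries made with a SMARTer mRNA kit, per the labels' protocols. HISAT2 2.1.0, Bowtie2 2.2.5, RSEM 1.2.8 and GRCh38.p13 stand in the submitters' processing notes. For the annotation and strand setting, no source used here names one. The authors deposited estimated counts, FPKM and TPM per gene and library, per the file headers.

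Estimated counts were rounded and tested with edgeR 4.0.16 (R 4.3.3): filterByExpr at a minimum count of 10, TMM, group alone, quasi-likelihood test, Benjamini-Hochberg adjustment over 12612 genes, threshold 0.05. SEs are changes over the square root of F. Alternatives used DESeq2 1.42.0, limma 3.58.1 (log2 with pseudocounts of 1 and 0.1) and a loess trend on GC content (span 0.5, from GENCODE 29). Simulated counts with known changes in a small part of the genes were used to test the fit. Such counts cannot check the scaling or false calls where most genes are called, as they are here. Members and lists were chosen with earlier results of these data known. Named with every library's value were 12 fixed genes and the 12 called members of largest change with at least 5 TPM in a group. Elsewhere the 4 smallest adjusted p-values of a list and its largest called change were named. Replicates differed beyond sampling noise (mean chi-square per gene 1.62 to 4.15).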

Additional observations from a re-analysis of the deposited data

How the results depend on the processing

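Of the 48 called members, 39 (19 higher, 20 lower) had the same direction and call under all 17 alternatives that gave a value, and with DESeq2's size factors or its Wald test all 61 tested members kept direction and call. The median of the members moved from -0.04 to 0.050 on log2(FPKM + 1), 0.098 on log2(TPM + 1) and 0.10 on log2(TPM + 0.1). With 1 library left out it was -0.08 to 0.01, with 20 to 23 members higher and 26 to 28 lower. Further translation genes counted as higher went from 11 to 18 (upper-quartile scaling), 20 (FPKM) and 23 (both TPM settings).

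Most signs that turned were those of changes near 0, apart from EIF3CL and EIF2S3B. EIF3G became 0.033 (upper quartile), 0.0036 (at least 50 counts in 3 libraries), 0.077 (FPKM), 0.12 (both TPM settings), 0.099 (GC trend removed) and 0.0033 (recentred TPM, a setting chosen after seeing the data). On log2(TPM + 1) and log2(TPM + 0.1) EEF1AKMT4 became 0.0315 and 0.032, EIF2S1 0.0449 and 0.0458, EIF4ENIF1 0.096 and 0.10, EIF5A 0.098 and 0.099, EIF3I 0.013 on both and EIF2S2 0.12 on both. On FPKM EIF5A became 0.052, EIF4ENIF1 0.0499 and EIF2S2 0.0745. With the GC trend removed EEF1AKMT4 became 0.0083, EIF5A 0.070, EIF2A -0.014, EIF3A -0.032, EEF1AKMT2 -0.10 and EIF4ENIF1 0.038. EIF4ENIF1 was 0.0079 at 50 counts and 0.037 at upper quartile, EIF5A 0.0024 at upper quartile, and EIF2S2 6e-04 on recentred TPM. With 1 library left out the range was -0.0791 to 0.0381 for EIF3G, -0.059 to 0.0495 for EIF4ENIF1, -0.0153 to 0.5632 for EIF2S3B, -0.0117 to 0.086 for EIF4EBP1, -0.0087 to 0.04 for EIF2B1 and -1.0017 to 0.0722 for EIF3CL. The cause was not tested.

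With the replicate block, 22 members were higher and 27 lower, EIF2S2 being added as lower (adjusted p = 0.0342), and no other member changed its call. No shared deviation by replicate number was seen: same-numbered libraries had deviations correlated at 0.0455, -0.0088 and -0.0133, and 2 of 6 libraries correlated best with their own number. With 3 libraries per group, these values cannot show whether the samples were paired.

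EEF1A2, EIF4EBP3 and EIF5AL1 had few counts, so their values are imprecise. Whether reads of EIF4EBP3 and EIF5AL1 were assigned to overlapping or near-identical genes was not tested.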

Other observations

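Genes beside the named translation factors were read as a description. For each named and called member, the nearest gene of the table on each side that does not overlap it was taken. Genes that overlap a member were skipped. Of 30 tested neighbours of 18 members, 12 were called in the member's direction, 8 in the other direction and 10 were not called. Over all genes tested, 39.4% were higher and 38.1% lower, so the count in the same direction is close to the background. EIF3B lies between NUDT1, which sanitises oxidised nucleotides (-0.54), and the sulfotransferase CHST12 (-0.62), both lower as EIF3B was. EIF3K lies between the kinase MAP4K1 (-0.38) and the actin crosslinker ACTN4 (-0.37), both lower. EIF4G1 stands beside the proteasome subunit PSMD2, which fell by 1.18 on the log2 scale, and EEF2K beside the RNA polymerase III subunit POLR3E, which fell by 1.12. EIF4E3 stands beside FOXP1, which passed as higher at 0.16. EEF1A2 stands beside PPDPF, which rose from 3.95 to 11.3 TPM (1.36). Neighbours also went the other way. EIF4E, which rose, lies between TSPAN5 (-0.58) and METAP1 (-0.33), both lower. EIF1B, which rose, stands beside MYRIP (-2.65), a gene at low levels, 0.71 TPM in scramble and 0.12 TPM after knockdown. EIF4EBP2, which rose, stands beside LRRC20 (-0.80), and EIF4G2, which fell, beside RNF141 (0.84). The genes named here were chosen after their values were seen. EIF3G, which was not called, overlaps P2RY11 on the opposite strand, and P2RY11 rose by 3.37.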
